A study of Mus musculus with 4 samples.

Results

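The genes of the ionotropic and metabotropic transmitter receptors were followed in RNA-seq of the E13.5 mouse retina. Their symbols were matched by the naming patterns of the glutamate receptor (*Gria*, *Grid*, *Grik*, *Grin*, *Grm*), GABA receptor (*Gabr*, *Gabbr*), glycine receptor (*Glra*, *Glrb*) and nicotinic acetylcholine receptor (*Chrn*) families. The patterns use symbols and no measured value, but the families were chosen with earlier results of these data known. The patterns matched 70 of 24062 genes in the count table. *Grid2ip*, a scaffold protein, and *Grin1os*, an RNA antisense to *Grin1*, matched by name but encode no receptor. This left 68 receptor genes. *Grid2ip* had 39 and 31 reads in wildtype against 39 and 58 in mutant libraries and was not called, and *Grin1os* had 8 reads in 1 mutant library and none in the others.

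The study compared wildtype retinas with retinas labelled Nrf1-CKO, which carry the genotype *Nrf1* f/f;Six3-Cre, both at stage E13.5, and all embryos had the strain label C57BL/6 129 mixed. *Nrf1* encodes nuclear respiratory factor 1, a transcription factor of mitochondrial genes, and the Six3-Cre transgene removes its floxed allele in proliferating progenitors, starting in the central retina, so that cells outside that region can keep the gene. There were 2 libraries per genotype, from retinas pooled over several littermates. Whether the 2 libraries of a genotype came from separate pools is not given in the sources used here. The p-values thus measure the spread between libraries and not between single embryos. The libraries held between 74577660 and 85933945 reads on genes. Reads of *Nrf1* as a whole gene were 9052 and 7789 in wildtype against 8594 and 8284 in mutant libraries, a count that covers exons inside and outside the deleted part and does not check the genotype.

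Markers of tissues other than the neural retina differed between the genotypes. Summed over a list of 10 lens genes, the level was 154 and 424 CPM (the reads of a gene divided by the scaled size of its library) in wildtype against 8890 and 3630 CPM in mutant libraries, and 10 of 10 were called higher. Markers of skeletal muscle summed to 46.4 and 34.6 CPM in wildtype against 358 and 62.2 CPM in mutant libraries, with 11 of 12 tested genes higher, and only *Ckm* was at 0 in a library. For macrophages and microglia the sums were 82.4 and 76.4 CPM against 248 and 298 CPM, with 10 of 10 genes higher. Of the tested markers, 6 of 8 for pigment epithelium, 6 of 8 for endothelium (with *Kdr* lower), 6 of 8 for periocular mesenchyme and 5 of 6 for surface epithelium were higher too, and the defining pigment epithelium gene *Rpe65* was at 0 in 3 libraries. Retinal ganglion cell (RGC) markers moved the other way, with sums of 3390 and 3840 CPM in wildtype against 1460 and 1180 CPM in mutant libraries. Of 16 RGC markers 14 were lower, *Rbpms* was not called and none was at 0. *Thy1* was called higher but was near absent, with 1 and 1 reads in wildtype against 11 and 25 in mutant libraries. It passed the filter only through the mutant libraries. Progenitor markers summed to 10400 and 10900 CPM against 8460 and 8830 CPM, with 3 of 14 lower and none higher. Amacrine and horizontal cell markers summed to 559 and 600 CPM against 496 and 472 CPM, with 4 of 10 lower and 3 higher, and 2 of 6 photoreceptor precursor markers were lower. In such bulk RNA, fewer cells of a type and less RNA per cell cannot be told apart, and the part of these other cells in the receptor results was not tested except where a value is given.

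Transmitter receptors fall into 2 structural kinds. Ionotropic receptors are ion channels built of several subunits, each from its own gene, that open when glutamate, GABA, glycine or acetylcholine binds, and the choice of subunits sets which ions pass and how fast the channel closes. Metabotropic receptors act through G proteins. At E13.5 the retina consists mostly of dividing progenitors and newly born neurons, chiefly RGCs, and has few synapses. Acetylcholine through nicotinic receptors drives spontaneous retinal waves around birth, and GABA and glycine are excitatory in many immature neurons. In cultured neurons, Nrf1 has been described as a regulator of *Gria2* and of NMDA receptor genes, including *Grin1*.

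*Gria2* and *Gria4* were lower in the mutant and hold the letters GCGCANGCG, which resemble the known GC-rich Nrf1 element. *Grin1* was lower and holds no exact match to these letters, and looser matches were not searched. The promoters of these 3 glutamate receptor genes are shown. Each is the 300-base window around the gene's start from RefSeq (build GRCm38.p6), read 5′ to 3′ on the gene's strand. Capitals mark the letters GCGCANGCG on either strand, and *Gria4* carries them on the opposite strand.
Gria2, chr3:80802786-80803085, minus strand: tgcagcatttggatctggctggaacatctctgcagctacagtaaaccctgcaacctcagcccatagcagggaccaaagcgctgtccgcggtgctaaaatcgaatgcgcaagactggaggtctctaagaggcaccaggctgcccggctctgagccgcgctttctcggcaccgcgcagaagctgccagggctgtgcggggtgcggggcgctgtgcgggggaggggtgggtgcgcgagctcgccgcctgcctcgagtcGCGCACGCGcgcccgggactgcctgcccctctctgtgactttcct
Gria4, chr9:4796185-4796484, minus strand: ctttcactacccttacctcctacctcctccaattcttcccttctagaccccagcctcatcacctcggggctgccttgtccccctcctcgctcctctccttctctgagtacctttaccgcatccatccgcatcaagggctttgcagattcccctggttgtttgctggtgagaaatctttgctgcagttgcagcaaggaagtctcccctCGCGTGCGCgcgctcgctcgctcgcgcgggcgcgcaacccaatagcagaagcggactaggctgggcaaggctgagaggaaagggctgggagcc
Grin1, chr2:25319138-25319437, minus strand: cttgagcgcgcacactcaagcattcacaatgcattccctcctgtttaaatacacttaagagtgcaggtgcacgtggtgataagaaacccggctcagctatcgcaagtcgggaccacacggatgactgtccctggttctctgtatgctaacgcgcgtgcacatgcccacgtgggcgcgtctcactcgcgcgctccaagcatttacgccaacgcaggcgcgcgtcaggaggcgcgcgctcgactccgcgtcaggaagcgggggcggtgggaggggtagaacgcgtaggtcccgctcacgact

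In *Gria2* the match covered bases 256 to 264 of the window and began 5 bases past the gene start of the GENCODE annotation, and in *Gria4* it covered bases 208 to 216. RefSeq windows were at hand for 48 of the 68 receptor genes, *Gria1* and *Gria3* not among them. GCGCANGCG stood in a window of 3 of these 48 genes (6.25%), namely *Gria2*, *Gria4* and *Gabrb1*, and in 1901 of 27025 genes overall (7.03%). The shorter CGCATGCG, which overlaps it in the *Gabrb1* window, stood in 1 of 48 (2.08%) and in 559 of all genes (2.07%). The receptor genes thus held these letters about as often as other genes. *Gabrb1* was read at most 6 times in a library. A match of letters is a description of the window and does not show binding.

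Of the 68 receptor genes, 55 had enough reads to be tested. Compared with edgeR's quasi-likelihood test at the study's thresholds, 1.4-fold or more and a Benjamini-Hochberg adjusted p of 0.2 or less, 19 were lower in the mutant (34.5%), beside 8.04% of the 15762 genes tested. Another 7 were higher (12.7%, beside 12.8%), and 29 were not called. At an adjusted p of at most 0.05, 16 lower (29.1%, beside 6.59% of all tested genes) and 5 higher calls (9.09%, beside 9.17%) were left. Both mutant libraries lay below both wildtype libraries in 24 receptor genes (43.6%, beside 31.6% of all tested genes) and above them in 14 (25.5%, beside 30.9%). The median log2 fold change, mutant over wildtype, was -0.29 over the tested receptor genes and 0.00073 over all tested genes. It moved to -0.08 without mutant replicate 2. Of the 10 tested nicotinic genes, 4 were lower and 2 higher. The called genes included members that moved in opposite directions within 1 receptor family.

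**Figure D1:**
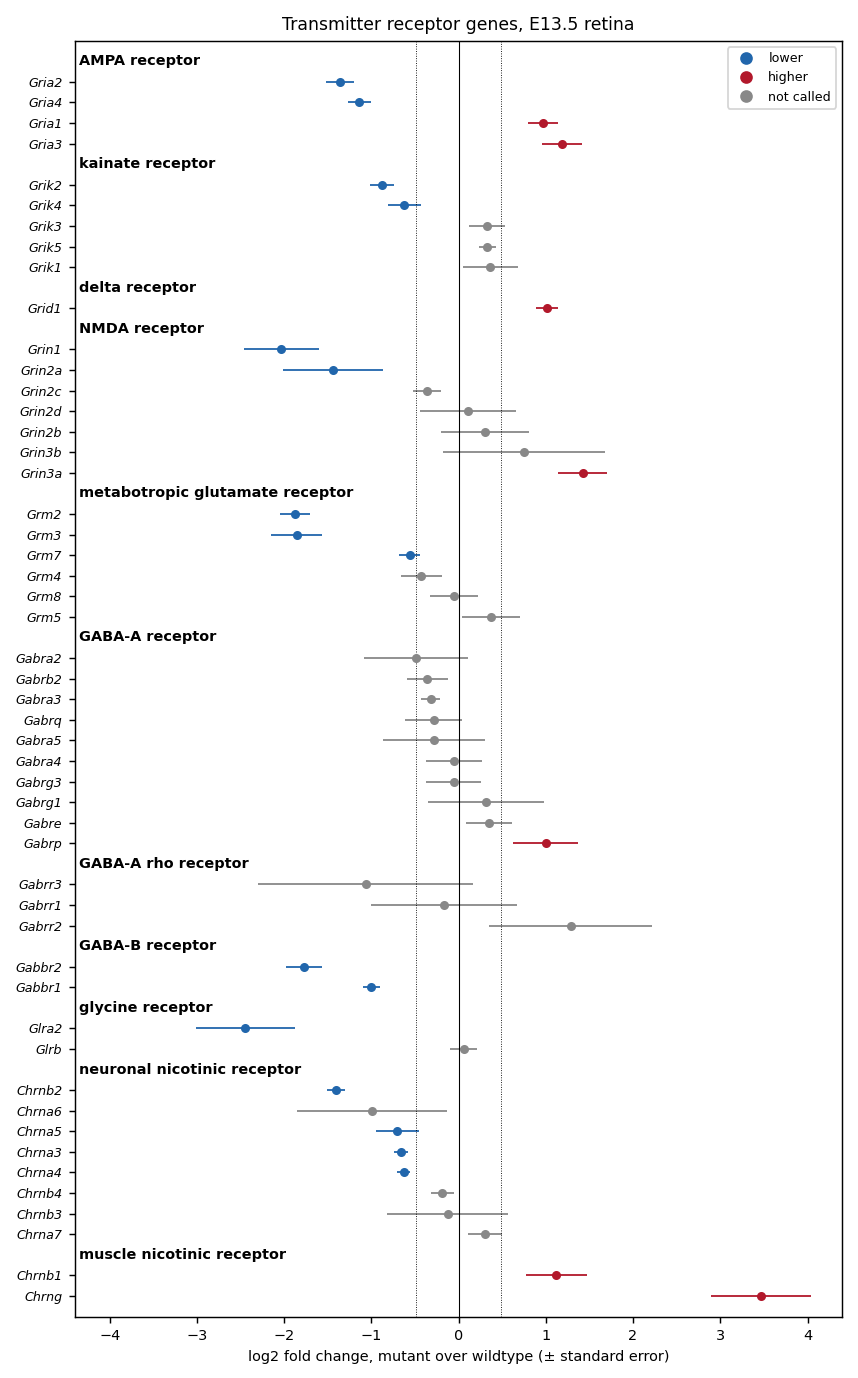
Log2 fold change (mutant over wildtype, x axis, with its standard error as a bar) of 50 tested receptor genes by class, with dotted lines at a fold of 1.4 in either direction. Blue points mark 16 genes called lower, red points 7 called higher and grey points 27 not called, and the 4 AMPA receptor genes split into 2 lower and 2 higher.

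The 4 AMPA receptor genes, whose products form the fast glutamate channels, all changed, 2 in each direction. *Gria4*, the most abundant of them in wildtype, had 3091 and 3048 reads in wildtype against 1607 and 1269 in mutant libraries, a log2 fold change of -1.14 ± 0.13 (SE, n = 2 libraries per genotype, edgeR adjusted p = 0.000473). *Gria2*, whose edited subunit makes the channel impermeable to calcium, had 865 and 798 reads against 363 and 302 and was lower too (log2 fold change -1.36 ± 0.16, edgeR adjusted p = 0.000556). *Gria1* had 708 and 638 reads in wildtype against 1128 and 1578 in mutant libraries and was higher (log2 fold change 0.97 ± 0.17, edgeR adjusted p = 0.00375). *Gria3*, on the X chromosome, had 195 and 214 reads against 548 and 413 and was higher as well (log2 fold change 1.18 ± 0.23, edgeR adjusted p = 0.00661). The genotypes overlapped in none of the 4 genes, beside 31.6% of all tested genes with both mutant libraries below and 30.9% with both above.

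The makeup of AMPA receptor RNA differed with these changes. Levels were put on a per-length scale, CPM per kilobase of annotated exon, to compare genes. On this scale *Gria4* made up 71.8% and 73.0% of the summed AMPA subunit level in wildtype against 49.0% and 38.4% in mutant libraries. The share of *Gria1* was 17.2% and 15.9% in wildtype against 35.9% and 49.9% in mutant libraries. *Gria2* held 8.15% and 7.75% against 4.49% and 3.71%, and *Gria3* 2.90% and 3.28% against 10.7% and 8.0%. The ratio of *Gria1* to *Gria2* per length was 2.11 and 2.06 in wildtype against 8.0 and 13.4 in mutant libraries. Its level depends on the lengths used. In CPM, *Gria1* was below *Gria2* in wildtype, at 8.08 and 8.60 against 9.88 and 10.8. In mutant libraries *Gria1* was above it, at 13.6 and 19.1 CPM against 4.37 and 3.65 CPM. The summed level itself was 7.80 and 8.93 CPM per kilobase in wildtype against 6.27 and 6.33 in mutant libraries. These shares are descriptions of 2 libraries per genotype and were not tested beyond the genes themselves.

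**Figure D2:**
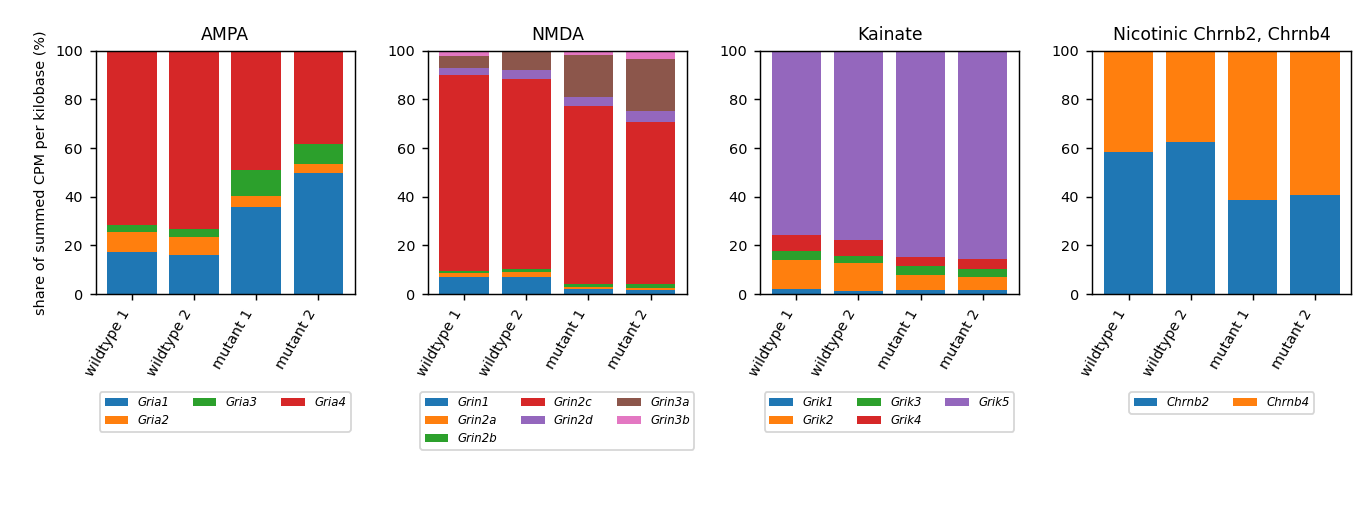
Share of each subunit gene in the summed CPM per kilobase of its family (y axis, percent) in the 4 libraries, for AMPA, NMDA and kainate receptors and for the nicotinic genes *Chrnb2* and *Chrnb4*. *Gria4* shrinks from 71.8% and 73.0% to 49.0% and 38.4% while *Gria1* widens from 17.2% and 15.9% to 35.9% and 49.9%, and *Grin2c* is the widest band of the NMDA bars in every library.

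Of the delta receptor genes, related to AMPA receptors and known as synaptic organisers, *Grid1* was higher, with 886 and 721 reads in wildtype against 1525 and 1794 in mutant libraries (log2 fold change 1.01 ± 0.13, edgeR adjusted p = 0.000673).

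Of 5 kainate receptor genes 2 were lower and none was higher, beside 8.04% and 12.8% of all tested genes. *Grik2*, a principal subunit that can form channels by itself, had 1763 and 1546 reads in wildtype against 1041 and 803 in mutant libraries (log2 fold change -0.88 ± 0.14, edgeR adjusted p = 0.00225). *Grik4*, an auxiliary high-affinity subunit, had 436 and 392 reads against 275 and 278 (log2 fold change -0.62 ± 0.19, edgeR adjusted p = 0.0435). *Grik5*, the other high-affinity subunit and the most abundant kainate receptor gene, had 4264 and 4143 reads in wildtype against 5759 and 5129 in mutant libraries, and its log2 fold change of 0.33 (edgeR adjusted p = 0.0374) was under the fold limit. Per length, *Grik5* made up 75.7% and 77.9% of the kainate receptor level in wildtype against 84.9% and 85.6% in mutant libraries. *Grik1* (0.36 ± 0.31) and *Grik3* (0.32 ± 0.20) were not called on the log2 scale. The call of *Grik4* was lost when the test itself was set against a fold of 1.4.

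NMDA receptors need the obligatory subunit encoded by *Grin1*, and this gene was lower, with 128 and 119 reads in wildtype against 36 and 26 in mutant libraries (log2 fold change -2.03 ± 0.43, edgeR adjusted p = 0.00918). *Grin2a*, a glutamate-binding subunit that rises as synapses mature, had 52 and 71 reads against 29 and 18 (log2 fold change -1.44 ± 0.57, edgeR adjusted p = 0.108). *Grin3a*, a glycine-binding subunit of juvenile neurons that lowers calcium entry, was higher, with 116 and 164 reads in wildtype against 377 and 407 in mutant libraries (log2 fold change 1.42 ± 0.28, edgeR adjusted p = 0.00682).

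*Grin2c* was the most abundant NMDA receptor gene, at 80.5% and 78.2% of the summed level per length in wildtype against 73.2% and 66.7% in mutant libraries. It had 748 and 704 reads against 648 and 517 and was not called (log2 fold change -0.36 ± 0.16, edgeR adjusted p = 0.154). Per length, *Grin3a* stood at 0.716 and 1.09 times the level of *Grin1* in wildtype against 8.28 and 12.4 times in mutant libraries. *Grin2b*, *Grin2d* and *Grin3b* stayed under 1 CPM and were not called, with log2 fold changes of 0.30, 0.10 and 0.75. *Grin1* shares 13.47% of its exon bases with *Grin1os* on the other strand, whose reads cannot be told apart where the counting did not use strand. *Grin1* was not called on the deposited normalized values, and *Grin2a* was not called without wildtype replicate 2 (edgeR adjusted p = 0.429) or without mutant replicate 2 (edgeR adjusted p = 0.37).

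Of the metabotropic glutamate receptor genes, *Grm2*, *Grm3* and *Grm7* were lower. *Grm2* and *Grm3* encode the group II receptors, which inhibit adenylyl cyclase. *Grm2* had 2934 and 2726 reads in wildtype against 951 and 638 in mutant libraries (log2 fold change -1.87 ± 0.17, edgeR adjusted p = 0.000201). *Grm3* had 329 and 217 reads against 74 and 79 (log2 fold change -1.86 ± 0.29, edgeR adjusted p = 0.00221). The pair kept like proportions, with *Grm2* at 84.7% and 88.7% of their joint level per length in wildtype against 88.9% and 83.4% in mutant libraries. *Grm7*, a group III receptor of nerve terminals, had 1875 and 1890 reads against 1358 and 1278 (log2 fold change -0.56 ± 0.12, edgeR adjusted p = 0.00951).

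The call of *Grm7* was lost without wildtype replicate 2, where its log2 fold change of -0.43 was under the fold limit. *Grm4* (log2 fold change -0.43 ± 0.23), *Grm8* (-0.06 ± 0.28) and the group I receptor gene *Grm5* (0.37 ± 0.34) were not called. *Grm6*, the receptor of ON bipolar cells, which arise after birth, had no read in any library. *Grm2* shares 9.60% of its exon bases with a gene on the other strand.

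GABA-A receptors are chloride channels of alpha, beta and gamma or other subunits. *Gabra3*, the leading alpha subunit here, had 1905 and 1676 reads in wildtype against 1565 and 1380 in mutant libraries, and its log2 fold change of -0.32 ± 0.11 (edgeR adjusted p = 0.0668) was under the fold limit. Per length, *Gabra3* was 36.5% and 37.1% of the summed GABA-A level in wildtype against 38.1% and 41.1% in mutant libraries.

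*Gabrp*, the pi subunit, known from epithelia, had 131 and 69 reads in wildtype against 250 and 153 in mutant libraries (log2 fold change 1.00 ± 0.37, edgeR adjusted p = 0.0902). The list of 6 surface epithelium genes summed to 20.6 and 15.5 CPM in wildtype against 35.8 and 29.7 CPM in mutant libraries. The order of libraries was that of *Gabrp*, and the skeletal muscle and periocular mesenchyme lists had the same order. The part of these tissues in the *Gabrp* result was not tested. The call was lost without wildtype replicate 2 (log2 fold change 0.70) and without mutant replicate 1 (0.60). Among other GABA-A genes at 1 CPM or more, *Gabrb2* (-0.36 ± 0.24), *Gabrq* (-0.29 ± 0.32), *Gabra4* (-0.06 ± 0.32), *Gabrg3* (-0.05 ± 0.31) and *Gabre* (0.35 ± 0.26) were not called on the log2 scale. *Gabra2*, *Gabra5* and *Gabrg1*, under 1 CPM, had log2 fold changes between -0.49 and 0.32 and were not called. *Gabra6* (at most 4 reads in a library), *Gabrb1* (at most 6) and *Gabrd* (at most 1) were not tested. The rho subunit genes *Gabrr1*, *Gabrr2* and *Gabrr3*, which the mature retina uses in bipolar cells, had at most 15 reads in a library and log2 fold changes between -1.07 and 1.28, none called.

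Both genes of the GABA-B receptor, a G protein coupled receptor that works as a pair of unlike subunits, were lower, beside 8.04% of all tested genes. *Gabbr1*, which binds GABA, had 7695 and 7059 reads in wildtype against 4107 and 3484 in mutant libraries (log2 fold change -0.999 ± 0.096, edgeR adjusted p = 0.000236). *Gabbr2*, which couples to the G protein, had 848 and 967 reads against 312 and 239 (log2 fold change -1.77 ± 0.20, edgeR adjusted p = 0.000462). Per length, mean *Gabbr1* was 11.8 CPM per kilobase in the wildtype and 5.90 in the mutant, and mean *Gabbr2* 1.70 and 0.497. Whether the subunits differed in the size of their change was not tested.

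Among glycine receptor genes, *Glra2*, the alpha subunit of embryonic neurons, was lower, with 109 and 118 reads in wildtype against 32 and 11 in mutant libraries (log2 fold change -2.44 ± 0.56, edgeR adjusted p = 0.0144). Its value ranged from -3.40 without mutant replicate 1 to -1.88 without mutant replicate 2. On the deposited normalized values it was -0.53, still past the fold limit. *Glrb*, the beta subunit that anchors the receptor to gephyrin, had 574 and 458 reads against 557 and 542 and was not called (log2 fold change 0.06 ± 0.15). *Glra1* had at most 4 reads in a library, *Glra3* at most 8 and *Glra4* none, and they were not tested.

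**Figure D3:**
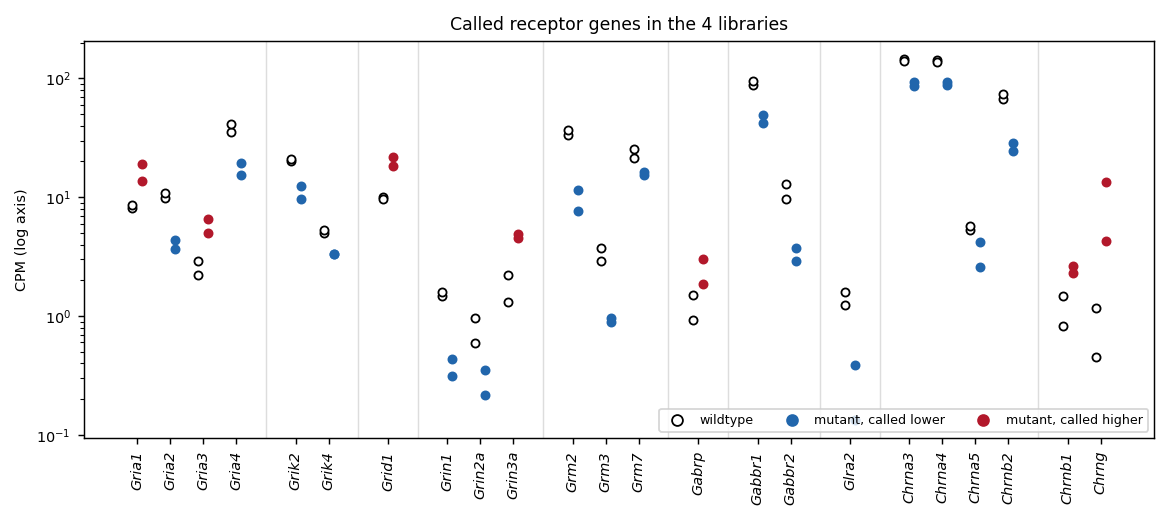
CPM (y axis, log scale) of 23 called receptor genes in the 4 libraries, ordered by class, with open circles for wildtype and filled circles for mutant libraries (blue, called lower; red, called higher). *Chrna3* and *Chrna4* are the most abundant at a wildtype mean of 142.5 and 140.0 CPM, and *Grin2a* is the least, at 0.776 CPM.

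*Chrna3* and *Chrna4* were the most abundant receptor genes per length in every library, and both were lower in the mutant, as was *Chrnb2*. *Chrnb2*, the beta subunit needed for these retinal waves, had 5890 and 5527 reads in wildtype against 2391 and 2044 in mutant libraries (log2 fold change -1.41 ± 0.10, edgeR adjusted p = 9.88e-05). *Chrna3* had 12805 and 10293 reads against 7758 and 7153 (log2 fold change -0.66 ± 0.08, edgeR adjusted p = 0.000568). *Chrna4* had 12506 and 10183 reads against 7691 and 7335 (log2 fold change -0.63 ± 0.08, edgeR adjusted p = 0.000579). *Chrna5*, an accessory subunit, had 463 and 426 reads against 347 and 215 (log2 fold change -0.70 ± 0.24, edgeR adjusted p = 0.0726). It was not called without wildtype replicate 2 or without mutant replicate 2, where its log2 fold change was -0.64 and -0.40. Without mutant replicate 1 its log2 fold change was -1.08.

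*Chrnb4*, another beta subunit, had 1859 and 1480 reads in wildtype against 1677 and 1321 in mutant libraries and was not called (log2 fold change -0.19 ± 0.13, edgeR adjusted p = 0.353). *Chrnb4* lies next to *Chrna3* and *Chrna5* on chromosome 9 (chr9:54980880-55048779, GRCm38), and the 3 genes of this cluster had log2 fold changes of -0.19, -0.66 and -0.70. Per length, *Chrnb2* stood at 1.41 and 1.66 times the level of *Chrnb4* in wildtype against 0.633 and 0.687 times in mutant libraries. Which of these beta subunits was higher in the mutant depends on the length used. In CPM, *Chrnb2* stayed above *Chrnb4* there, at 28.8 and 24.7 against 20.2 and 16.0. *Chrna3* and *Chrna4* kept their proportions, *Chrna3* being 49.4% and 49.1% of their joint level in wildtype against 49.0% and 48.2% in mutant libraries. *Chrna7*, which forms channels of 1 subunit kind, was not called (log2 fold change 0.30 ± 0.19). *Chrna6* and *Chrnb3*, under 1 CPM, had log2 fold changes of -0.996 and -0.124 and were not called. *Chrna2* and *Chrna9* had at most 2 reads in a library and *Chrna10* at most 13, and they were not tested. *Chrnb2* shares 16.3% of its exon bases with *Adar* on the other strand.

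The 5 subunits of the muscle-type nicotinic receptor gave 2 tested genes, both higher, beside 12.8% of all tested genes. *Chrng*, the gamma subunit of embryonic muscle, had 40 and 86 reads in wildtype against 1110 and 353 in mutant libraries (log2 fold change 3.46 ± 0.57, edgeR adjusted p = 0.00278). Its log2 fold change was 2.41 without mutant replicate 1 and 4.27 without wildtype replicate 2. On the deposited normalized values it was 1.35, and it was past the fold limit in each case. *Chrnb1* had 72 and 109 reads against 221 and 191 (log2 fold change 1.12 ± 0.35, edgeR adjusted p = 0.0517), and it was not called without wildtype replicate 1 (edgeR adjusted p = 0.208). *Chrna1* had 1 and 4 reads in wildtype against 80 and 9 in mutant libraries and did not pass the filter. With no filter it was called higher (log2 fold change 4.02, edgeR adjusted p = 0.0445), as it was by DESeq2. *Chrnd* had 7 and 2 reads in the mutant libraries and none in the wildtype, and *Chrne* had at most 2 reads in a library.

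Among these genes, *Chrng* was set beside the lens and skeletal muscle lists. *Chrng* followed the order of the libraries by the lens list, lowest in wildtype replicate 1 and highest in mutant replicate 1, and equalled 0.297% and 0.273% of the lens sum in wildtype against 0.150% and 0.117% in mutant libraries. Against the skeletal muscle list *Chrng* equalled 0.984% and 3.35% in wildtype against 3.73% and 6.86% in mutant libraries. Within wildtype they ran in opposite order, with *Chrng* at 0.457 and 1.16 CPM and the muscle sum at 46.4 and 34.6 CPM. The part of lens and muscle tissue in the *Chrng*, *Chrna1* and *Chrnb1* results was not tested.

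**Figure D4:**
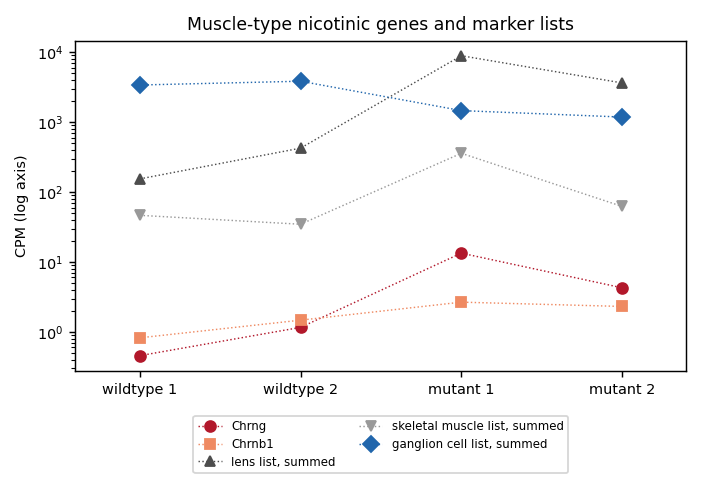
CPM (y axis, log scale) of *Chrng* and *Chrnb1* and the summed CPM of the lens, skeletal muscle and retinal ganglion cell lists in the 4 libraries, with dotted lines joining the values of 1 gene or list. The lens sum is 8890 and 3630 CPM in the mutant libraries against 154 and 424 CPM in the wildtype, and the ganglion cell sum runs the other way.

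Proteins that carry, anchor or assist the receptors were taken as a list of 44 genes, of which 42 were tested. There were 10 lower calls (23.8%, beside 8.04% of all tested genes) and 4 higher calls (9.52%, beside 12.8%), and the median log2 fold change was -0.26. The called genes with the largest changes were partners of several receptor kinds. *Cacng5* and *Cacng2*, AMPA receptor auxiliary subunits of the TARP family, had 248 and 253 reads against 51 and 18 (log2 fold change -2.90 ± 0.46) and 123 and 192 against 49 and 15 (-2.37 ± 0.58). *Gsg1l*, another AMPA receptor auxiliary subunit, had 389 and 416 reads against 169 and 127 (-1.49 ± 0.25). *Ly6h*, a modulator of nicotinic receptors, had 616 and 754 reads in wildtype against 247 and 192 in mutant libraries (-1.70 ± 0.23). *Cbln1*, a secreted ligand of the delta receptors, had 342 and 327 reads against 137 and 117 (-1.44 ± 0.24). The edgeR adjusted p of these partners, *Rapsn* and *Kctd16* included, ranged from 0.00104 to 0.0184. *Rapsn* and *Kctd16* had nearly equal changes of opposite sign (1.16 ± 0.25 and -1.16 ± 0.23). *Rapsn* anchors the muscle nicotinic receptor and had 170 and 123 reads against 376 and 290. *Kctd16*, an auxiliary subunit of GABA-B receptors, had 343 and 338 reads against 161 and 154. *Kctd12*, of the same list and also a GABA-B auxiliary subunit, was higher, with 1631 and 1284 reads against 2970 and 3084 (log2 fold change 1.02 ± 0.10, edgeR adjusted p = 0.000211).

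Genes that make, load or clear the transmitters formed a list of 20, of which 16 were tested. Calls were 4 lower (25%, beside 8.04% of all tested genes) and 2 higher (12.5%, beside 12.8%), and the median log2 fold change was -0.26. *Slc17a6*, the vesicular glutamate transporter of RGCs, had 2129 and 2109 reads against 582 and 358 (log2 fold change -2.22 ± 0.21). *Slc1a3* and *Slc1a2*, glutamate uptake transporters, had log2 fold changes of -0.78 ± 0.09 and -0.70 ± 0.12. *Slc6a9*, a glycine transporter, had 818 and 723 reads in wildtype against 1408 and 1736 in mutant libraries (0.99 ± 0.14), and *Slc17a8*, another vesicular glutamate transporter, had 33 and 38 against 61 and 88 (1.02 ± 0.49). The edgeR adjusted p of these 5 genes ranged from 0.000211 to 0.181. *Chat*, which makes acetylcholine, had at most 4 reads in a library, and *Slc18a3*, which loads it into vesicles, at most 16, so neither was tested.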

How the data were processed

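RNA was measured in whole E13.5 retinas, pooled by genotype into 2 libraries of wildtype and 2 of the *Nrf1* f/f;Six3-Cre genotype, grouped by their labels. The authors aligned paired-end reads to mm10 with TopHat2 (version 2.7.2 in the submitters' processing notes) and deposited HTSeq counts per gene, not normalized. The annotation release and strand setting are not given in the sources used here. The authors also deposited log2 values normalized between libraries, by a method not given in the sources used here. The submitters' processing notes list DESeq and limma without their role. These served as an alternative only. HTSeq summary rows, 74.0% to 75.0% of the entries per library, were left out, and 0 columns were unmapped.

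Counts were filtered (filterByExpr, minimum count 10), scaled by TMM (factors 0.992 to 1.02) and compared with edgeR 4.0.16 (glmQLFit and glmQLFTest, R 4.3.3) with Benjamini-Hochberg adjustment over all 15762 genes tested, and called past a 1.4-fold change with an adjusted p up to 0.2. Where the study used Cuffdiff on aligned reads, counts were used here. The standard error is the log2 fold change divided by the square root of F. The code was tested on simulated counts. The common biological coefficient of variation was 12.0%, and libraries of a genotype differed beyond counting noise (chi-square per gene 45.8 and 56.8). CPM used the TMM-scaled totals, and lengths were merged exons of GENCODE vM21. Depth limits genes of few reads, and reads can include PCR copies. Alternatives were DESeq2 1.42.0, limma 3.58.1, other scalings, filters and thresholds, a replicate block and leaving out each library.

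The members and gene lists were chosen with earlier results of these data known. Called receptor genes are named with their reads, uncalled genes of at least 1 CPM with values, others by range, and up to 6 called genes of each list of partners and transmitter supply by size of change. *Kctd16* and *Rapsn* tied for the last place among the 6 partners, so both are named, and *Kctd12* was added after its value was seen. Some genes that stand in the counts are not reported here.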

Additional observations from a re-analysis of the deposited data

How the results depend on the processing

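Of the 26 called receptor genes, 17 were called under every alternative run, and no called gene changed sign. The count of receptor genes called lower was 12 on the deposited normalized values with limma, whose log2 scale is compressed for low counts, and 13 when the test was set against a fold of 1.4. For all genes, the lower and higher counts were 723 and 945 with limma and 743 and 1188 with the test against that fold, beside 1268 and 2024. The cause was not tested. The 8 calls lost under both included *Chrna5*, *Chrnb1*, *Gabrp*, *Grik4*, *Grin2a* and *Grm7*, with *Grin1* lost under limma only. At an adjusted p of at most 0.05, 5 calls were lost, among them *Chrna5*, *Chrnb1*, *Gabrp* and *Grin2a*. Leaving out each library in turn gave 16 to 22 lower and 6 to 8 higher receptor genes, beside 1071 to 1402 lower and 1703 to 1856 higher among all genes. Both lower counts were highest without mutant replicate 1. Over these fits the median log2 fold change of the receptor genes ran from -0.41 (without mutant replicate 1) to -0.08 (without mutant replicate 2). The median on the deposited values was -0.09. Without mutant replicate 1, *Grin2c*, *Gabrb2* and *Gabrr3* were called lower too. DESeq2, library-size and upper-quartile scaling, no filter, and scaling without the marker genes of other tissues changed no call among the 26. With at least 10 reads in every library, 25 of the 26 gave a value. The labels share replicate numbers, but same-numbered libraries did not deviate together (correlation -0.00501), and with a replicate block 19 receptor genes were lower and 7 higher. Genes under 1 CPM are limited by depth.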
